A study of Homo sapiens with 2 samples.

Results

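The promoters of 9 glycolysis genes (GAPDH, ENO1, LDHA, PKM, HK2, TPI1, PGAM1, SLC2A1 and GPI) were examined in a genome-wide map of MYC binding. A MYC peak was counted at a gene when its summit, the base with the most ChIP fragments, lay within 5 kb of 1 fixed GRCh37 start site for that gene. The rule uses gene names and positions and no peak values, although earlier results of these data were known when the genes were chosen. All 9 had at least 1 peak, and together they held 24 of the 17659 peaks in the list. The map came from 1 MYC ChIP-seq library and 1 input library of sonicated chromatin, both made from TET21 cells. TET21 cells are derived from SH-EP, a human neuroblastoma line, and carry a MYCN transgene that doxycycline switches off. Both libraries came from cells that expressed full-length MYC ectopically, that had been kept in 1 µg/mL doxycycline for 7 days and that were fixed in 1% formaldehyde for 10 min. The ChIP used 2 µg of a rabbit polyclonal MYC antibody made by the submitters, and the labels do not say whether it separates ectopic from endogenous MYC. No replicate and no cells without ectopic MYC were analysed here, so no value has a replicate error and no test between conditions was possible. The cell type label could not be checked, because a peak list holds no marker gene expression.

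Glycolysis splits glucose into pyruvate and yields ATP and NADH, and many tumour cells run it at a high rate and release lactate. MYC binds DNA as a dimer with MAX, with the E-box CACGTG as its best known motif and CACGCG as a common variant, and glycolysis genes such as LDHA are textbook MYC targets. Among the genes studied, SLC2A1 encodes the glucose importer GLUT1, and HK2 encodes a hexokinase that phosphorylates glucose and traps it in the cell. GPI converts glucose phosphate to fructose phosphate, TPI1 interconverts the triose phosphates, and GAPDH oxidises glyceraldehyde phosphate. PGAM1, ENO1 and PKM encode the mutase, enolase and pyruvate kinase of the last steps, and LDHA reduces pyruvate to lactate.

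The sequence before the RefSeq start of 4 genes is shown because these genes carried the strongest peaks (ENO1, HK2 and LDHA) or the most peaks (GAPDH). Each is the 250 bases before a RefSeq start, read 5′ to 3′ on the gene's strand, with the E-box CACGTG and its variant CACGCG, searched on both strands, in capitals. They are on GRCh38.p14, at chr11:18394313-18394562 (plus strand), chr2:74834920-74835169 (plus strand, the downstream of the 2 RefSeq starts of HK2), chr12:6535014-6535263 (plus strand) and chr1:8878687-8878936 (minus strand). Peaks are on GRCh37, so these windows were not placed on the peaks.
LDHA: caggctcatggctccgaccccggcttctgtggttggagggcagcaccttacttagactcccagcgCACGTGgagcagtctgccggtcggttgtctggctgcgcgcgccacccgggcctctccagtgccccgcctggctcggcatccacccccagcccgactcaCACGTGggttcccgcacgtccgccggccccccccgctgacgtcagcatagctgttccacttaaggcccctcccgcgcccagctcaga
HK2: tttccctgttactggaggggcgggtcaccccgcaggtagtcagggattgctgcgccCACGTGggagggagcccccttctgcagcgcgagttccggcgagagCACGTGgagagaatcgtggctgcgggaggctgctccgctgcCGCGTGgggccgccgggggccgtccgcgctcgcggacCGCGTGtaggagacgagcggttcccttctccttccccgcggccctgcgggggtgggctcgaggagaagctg
GAPDH: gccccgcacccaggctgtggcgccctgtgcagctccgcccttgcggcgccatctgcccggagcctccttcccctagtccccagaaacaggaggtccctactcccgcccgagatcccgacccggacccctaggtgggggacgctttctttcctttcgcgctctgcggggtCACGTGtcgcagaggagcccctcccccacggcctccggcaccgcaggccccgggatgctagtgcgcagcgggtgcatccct
ENO1: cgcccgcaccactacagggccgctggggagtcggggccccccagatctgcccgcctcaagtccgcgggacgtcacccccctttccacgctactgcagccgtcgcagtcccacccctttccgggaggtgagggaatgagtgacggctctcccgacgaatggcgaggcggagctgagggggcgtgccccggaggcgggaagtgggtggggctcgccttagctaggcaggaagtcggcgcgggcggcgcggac

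LDHA held CACGTG 185 and 87 bases before its start, counted to the first letter of the motif. HK2 held it 194 and 149 bases before the downstream start, with CACGCG on the other strand at 108 and 71 bases. GAPDH held CACGTG once, 81 bases before a RefSeq start that lies inside the gene's annotated span. The ENO1 window held neither motif. All 9 genes matched the RefSeq table, with 12 windows in all, each of 250 bases before and 50 after a start. When both strands were searched, CACGTG, which reads the same on either strand, was found in 3 of the 9 genes (3 of 12 windows), against 8.77% of 27305 genes and 7.26% of 35116 windows in the whole table, and 10.9% of 15843 protein-coding genes. CACGCG was found in 4 genes (HK2, LDHA, PKM and TPI1), against 13.5% of all genes and 18.1% of protein-coding genes. TPI1 also held CACATG, an E-box variant found in 13.4% of all genes and 11.5% of protein-coding genes. At least 1 of the 3 motifs was in 5 of the 9 genes, against 31.3% of all genes and 34.6% of protein-coding genes. No motif of the 3 was found in any window of ENO1, GPI, PGAM1 or SLC2A1. The 12 windows of the 9 genes had a median of 70.3% G and C (the lowest were PGAM1 with 53.3% and GPI with 56.7%), against 58.7% over all windows and 62.3% over those of protein-coding genes. Among 33 other genes of glucose uptake, glycolysis and lactate handling, 27 matched, with 57 windows. CACGTG was found in 5 of the 27 (PFKFB3, ALDOA, ALDOC, PKLR and G6PC3). GRCh37 start sites of these 33 genes were not used here, so their peaks were not counted.

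MYC was called near all 9 start sites, and the best peaks of ENO1, HK2 and LDHA had more fragments than those of the other 6 genes. HK2 owes its place to 1 summit 1028 bp from its start site, and within 1 kb its best fold was 5.60, the lowest of the 9 genes. Each gene had a summit within 1 kb of its start site, from 17 bp at LDHA to 943 bp at TPI1. For scale, 4.63% of positions on chromosomes 1 to 22 and X lay within 5 kb of a summit, and 1.04% within 1 kb. These are shares of all positions and not of promoters, and the share of all gene starts with a MYC peak was not computed here. Fold is the authors' enrichment of ChIP over the local background, with 1 added to each. The highest fold of each gene had a median of 9.51 over the 9 genes, against 6.40 over all peaks of the list. The list was not limited to promoters, and fold, width and fragment count over promoter peaks alone were not computed here. The highest fold within 5 kb of each listed peak, which allows for the choice of the best of several peaks, had a median of 7.13. In 4 genes (ENO1, HK2, LDHA and SLC2A1) the best fold was 10 or more, and in 3 of them within 1 kb. In the whole list, 15.4% of peaks had such a fold and 22.8% had one within 5 kb. Over all 24 peaks of the genes, without choosing the best, the median fold was 7.37 (quartiles 6.07 and 9.66), against 6.40 (5.17 and 8.38) in the list. Of the 24 peaks, 17 lay above the list's median and 7 below it. By fragment count the 24 peaks and the list had the same median of 13. The median background was lower at the 24 peaks (0.862 against 1.12 fragments).

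**Figure D1:**
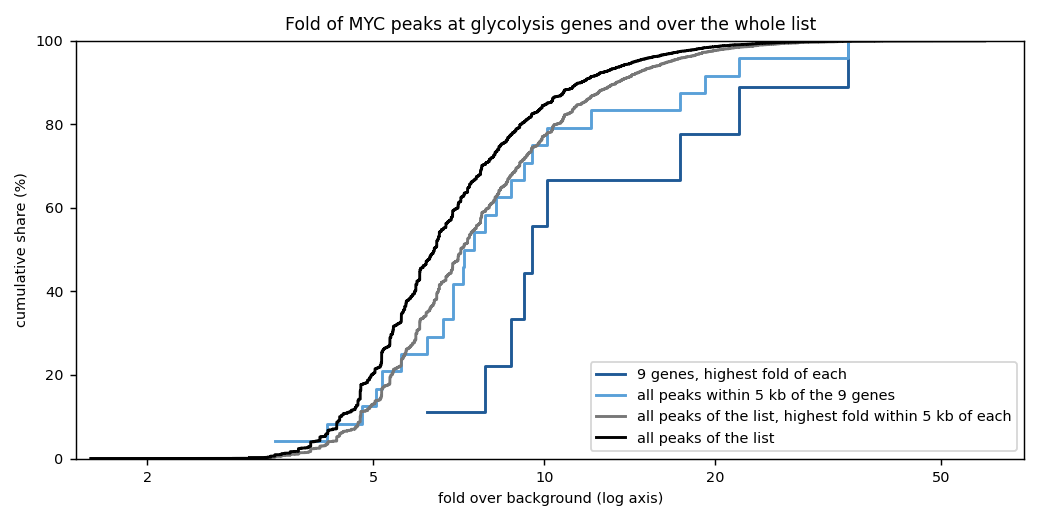
Cumulative share of fold over background (log axis) for the highest fold of each of the 9 genes, all 24 peaks within 5 kb of them, the highest fold within 5 kb of each listed peak, and all 17659 peaks. The curve of the 9 genes lies to the right. The medians are 9.51, 7.37, 7.13 and 6.40 in that order.

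Glucose uptake and the first steps differed widely in their MYC signal. At HK2 the main peak was strong and lay away from the start site, at chr2:75061962-75062637 with its summit 1028 bp downstream of the start site. It rested on 50 fragments (95% Poisson interval 37.1 to 65.9), with 1.32 fragments of background. Its fold of 21.98 ranked 168 in the list. A weaker peak, chr2:75061095-75061236, lay 113 bp downstream with 12 fragments (6.20 to 21.0) over the same background of 1.32 and a fold of 5.60. The intervals of these counts do not overlap, and the peak farther from the start site was the higher one. RefSeq gives HK2 a second start 1043 bases downstream of the first on GRCh38.p14, the start whose window with 2 CACGTG motifs is printed above. That distance is counted from the first RefSeq start and not from the GRCh37 start site used for the peaks. The second start was not placed on the peaks.

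SLC2A1 carried 3 peaks within its first kb, with summits 304, 428 and 848 bp downstream of the start site. Their folds were 5.17, 3.36 and 10.1 in that order, on 11, 9 and 16 fragments, whose intervals overlap. The backgrounds under them were 1.32, 1.98 and 0.683 fragments, so the strongest fold stood on the lowest background. The value of 0.683 is the floor of the list, shared by 9.97% of all peaks and by no other peak of the 9 genes. The first pair of summits lay 124 bp apart, less than the narrowest peak of the list (142 bp), and whether they are separate sites was not tested. The main peak was at chr1:43423878-43424176. The fold of 3.36 is among the lowest of the list, with 0.583% of peaks below it. GPI had a single peak at chr19:34856008-34856276, 472 bp downstream, with 13 fragments (6.92 to 22.2) over 0.778 and a fold of 7.87.

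The best peaks of the triose steps were moderate. TPI1 had 1 peak, chr12:6976949-6977339, with its summit 943 bp downstream, 16 fragments (9.15 to 26.0) over 0.843 and a fold of 9.22. GAPDH had the most peaks of the 9 genes, 6 spread from 1708 bp upstream to 4397 bp downstream. Its strongest, chr12:6643365-6644120, had a summit 266 bp downstream, 16 fragments (9.15 to 26.0) over 0.787 and a fold of 9.51. The other 5 had folds of 4.78 to 7.51 on 8 to 15 fragments. The strongest GAPDH peak ranked 3097 of the list by fold, and together the 6 covered 1941 bp, more than at any of the other 8 genes. GAPDH and TPI1 start 332.7 kb apart on chromosome 12, and no peak was counted for both.

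The last steps held both the strongest and the weakest gene. ENO1 had the highest fold, at chr1:8938015-8939075 with its summit 614 bp downstream of the start site. It rested on 65 fragments (50.2 to 82.8), with 0.928 fragments of background. Its fold of 34.24 ranked 17 and its −log10 p of 95.28 ranked 24 among the 17659 peaks. At 1061 bp wide it was 1 of 48 peaks of the list wider than 1000 bp. A second peak, chr1:8939178-8939530, had a summit 535 bp upstream with 34 fragments (23.5 to 47.5) and a fold of 19.18. The remaining one, 4869 bp downstream, had 27 fragments (17.8 to 39.3) and a fold of 12.07. Each of the 3 ENO1 peaks thus had a higher fold than any peak of GAPDH, TPI1, PKM, GPI, PGAM1 or SLC2A1.

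PGAM1 had the weakest signal, 1 peak at chr10:99185757-99185898, 70 bp upstream of the start site. It had 10 fragments (4.80 to 18.4) over 0.768 and a fold of 6.22, and 47.3% of the list's peaks had a lower fold. PGAM1 was the only gene of the 9 whose highest summit lay upstream of its start site. PKM had 5 peaks, from 1029 bp upstream to 4520 bp downstream, with folds of 4.15 to 8.73. Its strongest, chr15:72522593-72522945 at 919 bp downstream, had 25 fragments (16.2 to 36.9) over a background of 1.98. At 224 bp downstream a peak of fold 8.22 had 14 fragments over 0.825, so the higher count of the first came with a higher background and the folds were close.

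LDHA, which turns pyruvate into lactate, had its main summit 17 bp downstream of the start site, the closest of the 9 genes, at chr11:18415785-18416309. It had 62 fragments (47.5 to 79.5) and a fold of 17.31. Its background of 2.64 fragments was the highest among the 24 peaks. By −log10 p (61.87) it ranked 129 of the list and was second to ENO1 among the 9 genes, while by fold it ranked 458 and came after HK2. Its second peak, 1633 bp downstream, had 11 fragments (5.49 to 19.7) over 0.806 and a fold of 6.64.

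**Figure D2:**
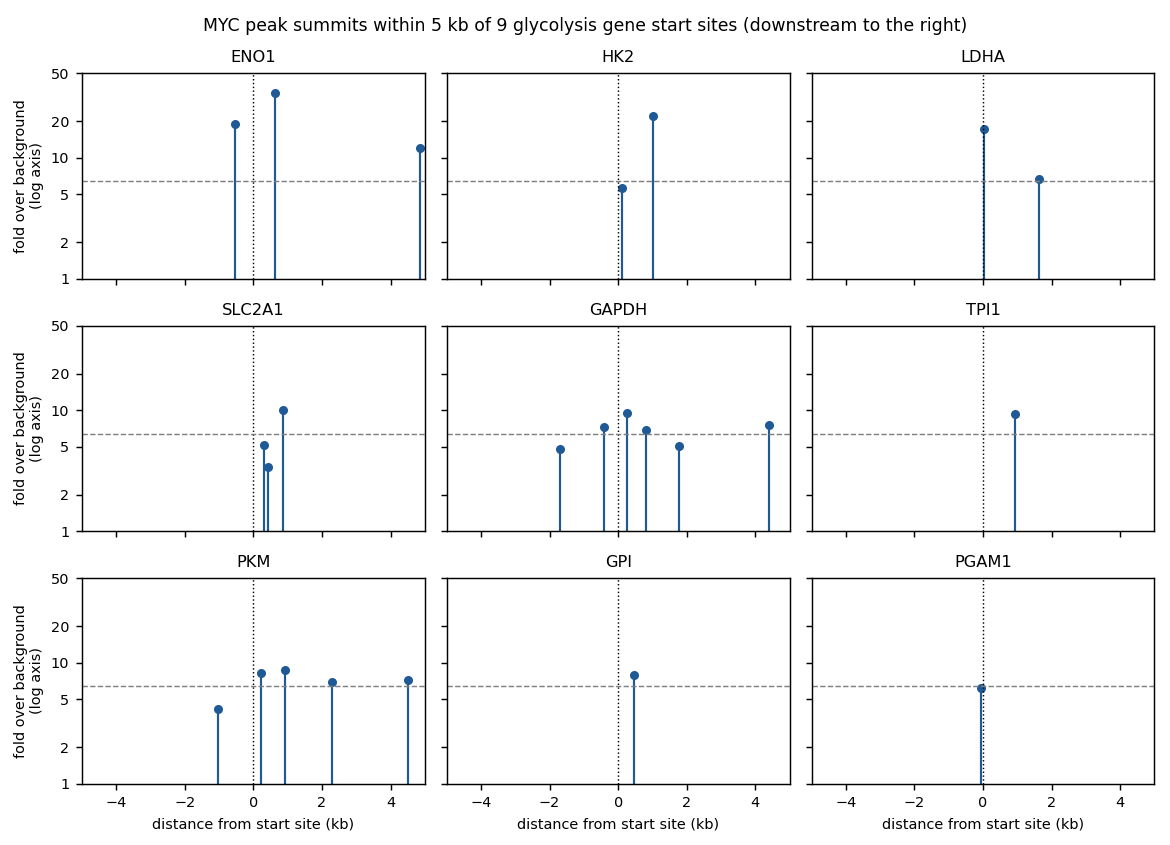
Fold over background (log axis) of every MYC summit against its distance from the start site in kb, with downstream to the right, in 1 panel per gene. The dashed line is the median of all listed peaks, 6.40, and the dotted line is the start site. Each of the 3 ENO1 summits and the main summits of HK2 and LDHA stand well above the dashed line. GAPDH and PKM show 6 and 5 summits, from below the line (lowest 4.78 and 4.15) to moderate height. HK2 and SLC2A1 also have summits below the line, and PGAM1 has 1 just below it.

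ENO1, LDHA and HK2 were separated from the other 6 genes by fragment counts. Their best peaks had 65, 62 and 50 fragments, against 10 to 25 in the other 6. The 95% Poisson intervals did not overlap in any of the 18 pairs across that gap. The closest pair was HK2, with a lower limit of 37.1, and PKM, with an upper limit of 36.9. Both groups were drawn from these same counts, so the intervals describe the gap and do not test it. Only 2.22% of all listed peaks reached 40 fragments, a limit that lies inside the gap. Counts of ENO1, LDHA and HK2 overlapped with each other, and so did counts within the other 6 genes. By fold, with the background taken as fixed, 16 of the 36 pairs of genes had intervals that did not overlap. All neighbours in the order ENO1, HK2, LDHA, SLC2A1, GAPDH, TPI1, PKM, GPI, PGAM1 overlapped. ENO1 was apart from LDHA by fold (26.5 to 43.5 against 13.3 to 22.1) but not by count, and LDHA was not apart from SLC2A1, GAPDH or TPI1 by fold. These intervals cover counting error only and leave out the error of the background. Without molecular identifiers, fragments may also repeat 1 molecule.

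**Figure D3:**
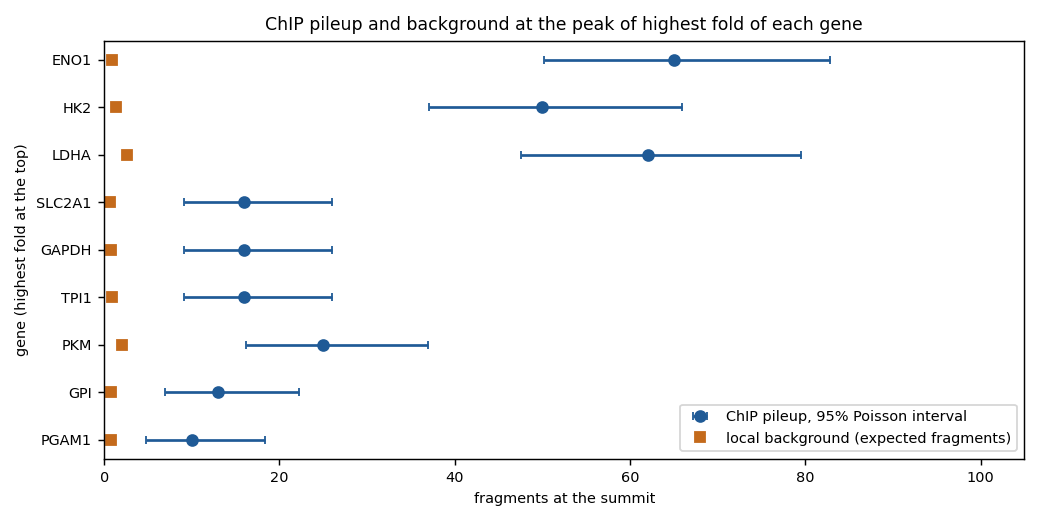
ChIP fragments with 95% Poisson intervals and the local background at the summit of the highest fold of each gene, in order of fold. ENO1, HK2 and LDHA have 65, 50 and 62 fragments, and the other 6 genes have 10 to 25, while the background stays between 0.683 and 2.64.

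Peaks of these genes lay mostly downstream of the start site. Of the 24 summits, 19 were downstream and 5 upstream (2 at GAPDH and 1 each at ENO1, PKM and PGAM1). The same count over other genes was not computed here, and it depends on the 1 start site used for each gene. RefSeq gives LDHA and TPI1, like HK2, a second start, 1788 and 574 bases downstream of the first on GRCh38.p14. No GRCh37 annotation was used, so exons and introns were not told apart. Within 1 kb of the start site there were 15 summits with a median fold of 8.22, and beyond 1 kb there were 9 with a median of 6.89, 1 of them the main HK2 peak. The 24 peaks had a median width of 284 bp, against 226 bp in the list. Those wider than 500 bp were the main peaks of ENO1, GAPDH, HK2 and LDHA (4 of 24, against 6.82% of the list). The narrowest width of 142 bp was seen in 4 of 24, against 9.21%. The median count was 13 fragments, the same as in the list, and the median background was 0.862, against 1.12.

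Several peaks per gene were common. GAPDH, PKM, ENO1 and SLC2A1 each had 3 or more summits within 5 kb of the start site, HK2 and LDHA had 2, and TPI1, PGAM1 and GPI had 1. In the whole list, 13.8% of peaks had 3 or more summits within 5 kb, themselves included, and 0.232% of positions did. GAPDH with 6 peaks and PKM with 5 had best folds of 9.51 and 8.73. ENO1 and SLC2A1 with 3 had 34.24 and 10.1, and LDHA and HK2 with 2 had 17.31 and 21.98. TPI1, GPI and PGAM1 with 1 had 9.22, 7.87 and 6.22. A relation between the number of peaks and the best fold was not tested. GAPDH and several of the other genes are known to have processed pseudogenes. How reads that match more than 1 place were treated is not given in the sources used here, and their part in these peaks was not tested.

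Near the 5 kb limit, the outermost counted summits were those at 4869 bp in ENO1 (fold 12.07), 4520 bp in PKM (7.20) and 4397 bp in GAPDH (7.51). Just outside it were a summit 5435 bp downstream of TPI1 (5.14) and one 5440 bp upstream of GPI (9.51), and this GPI summit was higher than the counted one. Between 5 and 50 kb from the start, TPI1 had 7 further peaks, SLC2A1 had 5, GAPDH and GPI had 3, PKM, HK2 and PGAM1 had 2, ENO1 had 1 and LDHA had none. The highest of these, 33.8 kb downstream of the GAPDH start at chr12:6677236-6677587, had a fold of 19.53, above all 6 counted GAPDH peaks. PKM, PGAM1 and SLC2A1, like GAPDH and GPI, had a peak in this range above their best counted one, with folds of 15.4, 13.6 and 10.9. At ENO1, HK2 and TPI1 the highest fold in this range (4.74, 6.71 and 7.13) was below the best counted one. The nearest uncounted peak to LDHA was 71.9 kb away, so its 2 peaks stood alone.

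The 1 Mb centred on the start site held 42 peaks at GAPDH and 38 at TPI1, windows that overlap, against 6.45 per Mb over chromosome 12. It held 23 at PGAM1, 20 at HK2, 20 at SLC2A1, 14 at ENO1, 14 at PKM and 9 at LDHA, all above the mean of their chromosomes (4.84 to 7.50 per Mb). These counts include the peaks counted at the genes, without which GAPDH had 36, ENO1 had 11, PKM had 9 and LDHA had 7, the last close to the 6.84 per Mb of chromosome 11. GPI was the exception, with 11 against 17.8 per Mb on chromosome 19. Each window was centred on a gene with a peak, and how often windows at other genes or peaks exceed their chromosome's mean was not computed here. In the RefSeq gene table, 7 of the 9 genes have another gene within 5 kb of their start. The share of all genes with such a neighbour was not computed here. ENO1, HK2 and SLC2A1 have the noncoding ENO1-AS1, HK2-DT and SLC2A1-DT beside them (ENO1 also the pseudogene RNU6-304P), GAPDH has GAPDH-DT, NCAPD2 and IFFO1, and TPI1 has USP5 and SPSB2. GPI has GARRE1 and PGAM1 has LOC644215. LDHA and PKM have none. The positions of these neighbours were not set against the peaks, so which gene a peak belongs to was not determined.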

How the data were processed

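The data are the authors' deposited list of 17659 MYC peaks from 1 ChIP library. Per the submitters' processing notes, the build was GRCh37 and the tools included MACS2 2.1.0, Picard 2.7.1, SAMtools 1.3, STAR 2.5.2a and bedtools, whose roles are not stated. The deposited score equals 10 times the −log10 q, rounded down. The authors' fold was read as the ratio of ChIP pileup to local background with 1 added to each. It is thus lower than the plain ratio of the printed fragments and background. The −log10 p and −log10 q are the authors' peak values. The run of peak numbers lacks 20, and the filter applied is not given in the sources used here. Sequencing depth is unknown.

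Pileup and background were recovered from the fold and −log10 p under MACS2's definitions, by trying whole pileups from 3 to 699. A match within 0.001 was found for 100.0% of peaks, and the procedure was tested on simulated data. Intervals are exact Poisson 95% intervals of the pileup. Peaks were counted by summit within 5 kb of start sites fixed by name, and all 9 genes are described. The genes, lists and settings were chosen with earlier results of these data known, and the comparison with the highest fold within 5 kb of each peak and with protein-coding genes was added after the data were seen. Sequences, strands and neighbouring genes are from RefSeq (GRCh38.p14), whose coordinates were not combined with the peaks. No set test was run. Python 3.11.15, NumPy 2.4.6, pandas 2.3.3, SciPy 1.17.1 and matplotlib 3.10.9 were used.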

Additional observations from a re-analysis of the deposited data

How the results depend on the processing

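Of 40 alternatives over 7 results, 36 were labelled unchanged and 4 moved. A count was unchanged within a factor of 1.5, and a median when it stayed inside a 95% Poisson interval. That interval is of the 1 best peak at the middle gene and not of the median itself. It was 5.68 to 15.1 for fold (GAPDH) and 8.48 to 31.2 for −log10 p (SLC2A1). The whole list's medians, 6.40 and 10.32, also fall inside, so the label says little about the medians. The 24 peaks became 15 with a limit of 1 kb and 9 when only peaks at or above the list's upper quartile of −log10 p (15.35) were kept. The genes with a high fold numbered 7 at a threshold of 8 in place of 4 at 10. The list's upper quartile of fold, 8.38, also lies above 8, and the share of the list at 8 was not computed here. The genes with an E-box numbered 5 when CACGCG and CACATG were searched beside CACGTG, in place of 3, against 31.3% of all genes with any of these motifs. These changes follow from counting fewer peaks, a lower threshold or more motifs. Without peaks under the list's median −log10 p (10.32) PGAM1 had no peak, and at the upper quartile neither PGAM1 nor GPI had one. The median highest fold stayed between 9.22 and 10.1, and the median over all 24 peaks was 7.37. No paired analysis was possible because there is 1 ChIP library, and no replicate could be left out. Counts of 7 to 16 fragments, as at most of these peaks, leave intervals too wide to order them.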
